A study of Mus musculus with 16 samples.

Results

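The 8 genes described here, Tnfrsf11a, Oscar, Itgb3, Nfatc1, Acp5, Ctsk, Atp6v0d2 and Car2, are genes by which osteoclasts and their precursors are recognised. Every non-control probe of the array whose gene name was one of the 8 was taken, which gave 12 of 55681 probes and 8 of 34779 gene names. Each of the 12 accessions led to the same gene in the RefSeq table. A probe was kept for testing if, in 1 or more of the conditions, none of the 4 arrays gave a signal that was not well above background, as the scanner software flags it. By that filter 10 of the 12 probes were kept, and with the brightest probe of each gene all 8 genes were among the 15877 tested. The dimmer Atp6v0d2 probe (A_52_P71686) and the dimmer Itgb3 probe (A_66_P126293) were not kept, with a signal well above background on 2 and 5 of the 16 arrays, respectively.

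RAW264.7, an established mouse macrophage-like cell line, was exposed to cordycepin, an adenosine analogue that inhibits polyadenylation, or to DMSO, its vehicle. The conditions, all with cordycepin at 20 µM where it was given, were DMSO, cordycepin, LPS+DMSO and LPS+cordycepin, each with 4 biological replicates, and each replicate number was collected on its own day. In the conditions with LPS, bacterial lipopolysaccharide at 1 µg/ml was given for 60 min after 60 min of pretreatment, and in the conditions without LPS the cells had 120 min of cordycepin or DMSO. mRNA was measured on 16 one-colour Agilent mouse arrays. No source names RANK ligand among the agents, and all samples come from a single cell line, so the arrays describe the precursor genes in undifferentiated macrophage-like cells.

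Osteoclasts are large multinucleate cells that form by fusion of monocyte and macrophage precursors and dissolve bone. M-CSF keeps the precursors alive, and RANK ligand binds the receptor RANK (Tnfrsf11a), which acts through TRAF6, NF-kB and AP-1. Together with calcium signals from ITAM-coupled receptors such as OSCAR, this leads to NFATc1, the transcription factor that drives the osteoclast programme. The other genes serve the mature cell, which attaches through the αvβ3 integrin (Itgb3), acidifies the bone surface with carbonic anhydrase II (Car2) and the vacuolar proton pump (Atp6v0d2), and digests the matrix with cathepsin K (Ctsk) and tartrate-resistant acid phosphatase (Acp5).

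All values are log2 signals scaled to the 75th percentile of each array, so that a difference of 1 is a 2-fold change, and levels of different probes are not compared. Of 9 macrophage markers, 8 were well above background on all 16 arrays, whereas Mertk was so on 12. Of 4 markers of the mature osteoclast, Dcstamp was well above background on all 16 arrays and Ocstamp on 8, and Calcr and Mmp9 on none. Of 6 osteoblast and 3 dendritic cell markers none was well above background on all arrays, and of the lymphocyte markers Cd3e was so on 16 arrays and Cd79a on 12. The arrays with replicates 1 and 2 lay on a single slide, with 37.1 to 43.9% of spots well above background, and those with replicates 3 and 4 on the other, with 45.8 to 51.2%. DMSO replicate 2 stood apart. Its mean correlation with the other DMSO arrays over 15801 genes was 0.982, against 0.989 to 0.990 for those arrays, and it was the far array of the 4 in 5.29% of genes, against 0.392 to 1.08%. Why it stood apart was not tested, and the changes of the 8 genes against DMSO, by the probe used for each, are given with and without it.

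A gene was called by limma on all 16 arrays at a Benjamini-Hochberg adjusted p under 0.05, and the counts of the 8 stand beside the shares of all genes. In LPS+DMSO against DMSO 1 of the 8 was called, beside 14.9% of all genes (5.11% higher and 9.74% lower), and this was Oscar, which rose and whose probe had passed the filter only through the conditions with LPS. In LPS+cordycepin against cordycepin 2 of the 8 were called, beside 8.01% of all genes (3.62% higher and 4.38% lower), with Oscar higher and Nfatc1 lower. In cordycepin against DMSO 2 of the 8 were called, beside 15.8% of all genes (8.07% higher and 7.73% lower), with Nfatc1 higher and Itgb3 lower. When LPS+cordycepin was set against LPS+DMSO, limma called 0 of the 8, beside 19.2% of all genes, and 0 of the 8 had an unadjusted p under 0.05. The interaction, which is the LPS response with cordycepin less that without, was called by limma for 0 of the 8, beside 0.548% of all genes, and again 0 had an unadjusted p under 0.05. The univariate test of the study's methods was also run, here and below with the Benjamini-Hochberg adjustment over all genes added. The paper states a threshold of 0.05 on p and no such adjustment for this test. It does not say that the test was used on the arrays. With the adjustment the test called 0 of the 8 in each of these comparisons but the interaction, which it cannot test. It so made none of the calls above, and its counts without the adjustment are not given. Of all 15877 genes the adjusted test called 1540 with LPS, 1076 with LPS in cordycepin, 1878 with cordycepin and 2570 with cordycepin in LPS. No change of the 8 was called at 2-fold or more, beside 4.58% of all genes with LPS, 2.9% with LPS in cordycepin, 5.54% with cordycepin, 7.46% with cordycepin in LPS and 0.359% for the interaction.

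**Figure D1:**
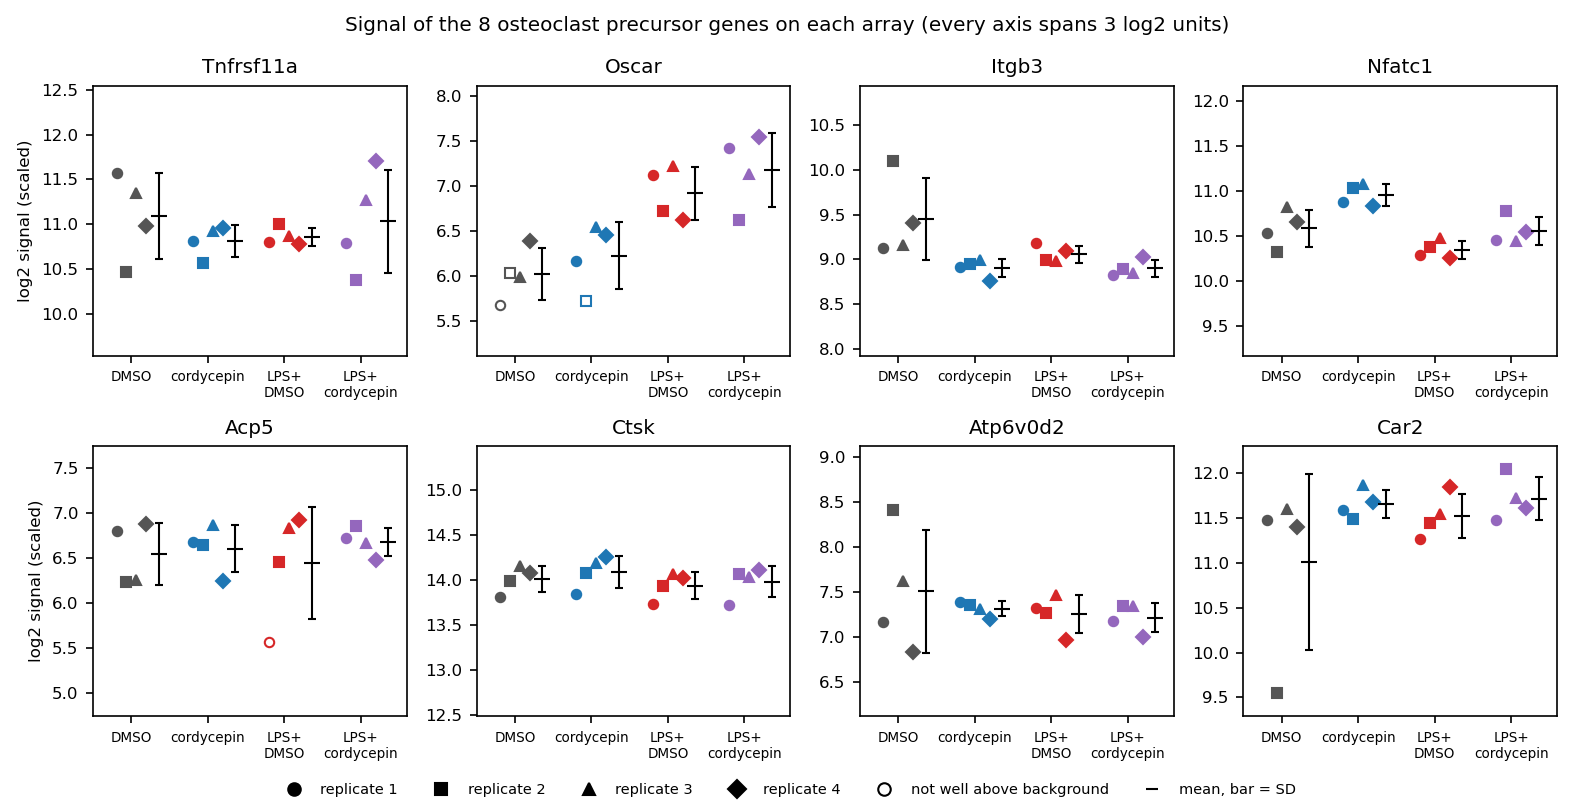
Scaled log2 signal (vertical axis) of the probe used for each of the 8 genes on the 16 arrays, by condition (horizontal axis). Symbols mark the replicate number, open symbols a signal not well above background, and bars the mean ± SD of 4 arrays. The Oscar signals with LPS, from 6.62, lie above those without, up to 6.55, and DMSO replicate 2 lies away from the other DMSO arrays for Car2 at 9.55, Itgb3 at 10.1 and Atp6v0d2 at 8.41.

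The median log2 change of the 8 was close to that of all genes in each comparison. It was -0.16 beside -0.04 for all genes in LPS+DMSO against DMSO, 0.03 beside -0.04 in LPS+cordycepin against cordycepin, 0.07 beside 0.03 in cordycepin against DMSO and 0.18 beside 0.04 in LPS+cordycepin against LPS+DMSO. The plot of changes with their 95% intervals shows how much each comparison leaves undecided. The narrowest intervals were those of Nfatc1 and Ctsk and the widest those of Car2.

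**Figure D2:**
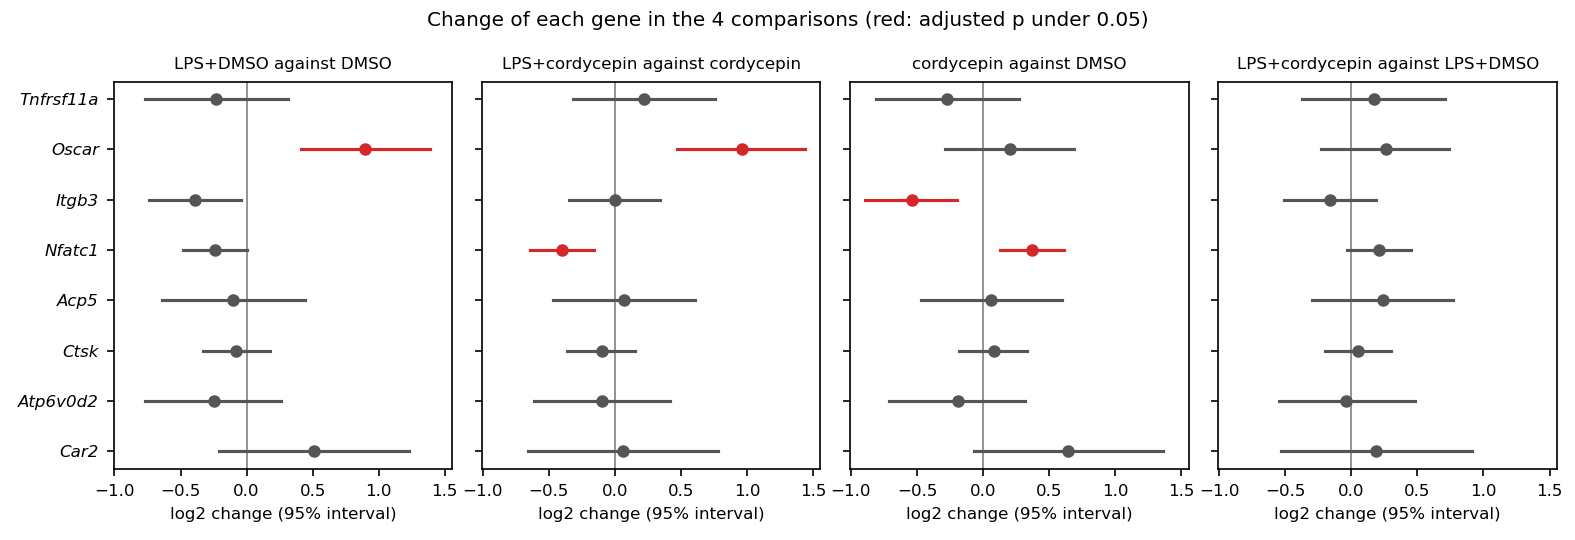
Log2 change (horizontal axis, point) with its 95% interval from limma (line) for each of the 8 genes in 4 comparisons. Red marks the called changes, Oscar at 0.90 and 0.96 with LPS, Nfatc1 at 0.37 with cordycepin and -0.40 with LPS in cordycepin, and Itgb3 at -0.54 with cordycepin.

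Of the receptors, OSCAR is an immunoglobulin-like receptor that signals through the FcRγ chain and costimulates RANK. Its probe, A_55_P1977426 (NM_175632; chromosome 7, 3561419 to 3561478, minus strand, mm9), gave 5.68, 6.03, 5.99 and 6.39 in DMSO and 7.13, 6.72, 7.22 and 6.62 in LPS+DMSO, in the order of replicates 1 to 4. In cordycepin it gave 6.17, 5.72, 6.55 and 6.46, and in LPS+cordycepin 7.42, 6.62, 7.14 and 7.55. All 8 arrays with LPS were above all 8 arrays without it, and the conditions with and without cordycepin overlapped.

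From a DMSO signal well above background on 2 of 4 arrays, the log2 signal of Oscar rose with LPS by 0.90 (SE 0.23, 95% interval 0.41 to 1.39, 1.87-fold, higher in 4 of 4 replicates, limma adjusted p = 0.0134), and within the slides it differed by 1.07 for replicates 1 and 2 and by 0.73 for replicates 3 and 4. With cordycepin present it rose by 0.96 (SE 0.23, interval 0.47 to 1.44, 1.94-fold, 4 of 4 replicates, limma adjusted p = 0.0149), with 1.07 and 0.84 within the slides. The difference between these responses was 0.06 (interval -0.63 to 0.75), and cordycepin against DMSO gave 0.20 (interval -0.29 to 0.69) at rest and 0.26 (interval -0.23 to 0.74) with LPS. Without DMSO replicate 2 the first rise was 0.90 (limma adjusted p = 0.0267), and the difference with cordycepin at rest was 0.20.

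The Oscar signal lay near the background of the array. The flag for a signal well above background was set on 2 of 4 DMSO arrays, 3 of 4 cordycepin arrays and all 8 arrays with LPS, so the probe passed the filter only through the conditions in which it was high. Without a filter on dim probes the limma adjusted p was 0.0549 for LPS+DMSO against DMSO and 0.0653 for LPS+cordycepin against cordycepin. With the normexp background correction the changes were 0.32 and 0.56 (limma adjusted p = 0.362 and 0.133), and with scaling to the spike-in controls 0.80 and 0.64 (adjusted p = 0.586 and 0.652). The first call was also lost without replicate 1 or 3 of every condition (adjusted p = 0.149 and 0.124), and the second without replicate 1, 3 or 4 (adjusted p = 0.124, 0.0610 and 0.0671) or without any of 3 single arrays, namely cordycepin replicate 2 and LPS+cordycepin replicates 1 and 4 (adjusted p = 0.0506 to 0.0570).

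The promoters of Oscar, the gene that rose with LPS, and of Ctsk, which was not called in any comparison, are shown side by side. They are the 250 bases before the RefSeq start site on GRCm38.p6, 5′ to 3′ on the strand of the gene, at chr7:3616158-3616407 (minus strand) for Oscar and chr3:95498960-95499209 (plus strand) for Ctsk. Capitals mark matches on either strand to any of 5 motifs, namely GGAAA for NFAT, GAGGAA for PU.1, TGANTCA for AP-1 and CACGTG for the E-box bound by MITF, and the consensus of NF-kB. The PU.1 and NFAT letters can overlap, although no matches overlapped here.
Oscar: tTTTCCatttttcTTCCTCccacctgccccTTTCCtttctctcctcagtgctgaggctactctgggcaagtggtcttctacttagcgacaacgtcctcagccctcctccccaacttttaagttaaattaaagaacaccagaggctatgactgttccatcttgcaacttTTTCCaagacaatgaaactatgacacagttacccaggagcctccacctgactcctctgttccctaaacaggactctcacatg
Ctsk: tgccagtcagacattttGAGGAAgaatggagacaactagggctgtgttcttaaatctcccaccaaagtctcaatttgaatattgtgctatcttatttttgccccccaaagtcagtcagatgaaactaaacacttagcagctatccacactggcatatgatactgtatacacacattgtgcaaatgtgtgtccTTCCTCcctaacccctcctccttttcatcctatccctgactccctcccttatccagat
The Oscar promoter held 3 NFAT matches, which began 249, 220 and 82 bases before the start site, and 1 PU.1 match at 237. The Ctsk promoter held 2 PU.1 matches, at 233 and 58, and none for NFAT. These windows held no match to the AP-1, E-box or NF-kB motif. Of all 32851 promoters of this length, 55.6% held the NFAT letters, 23.3% the PU.1, 6.75% the AP-1, 6.02% the E-box and 7.25% the NF-kB consensus. Tnfrsf11a and Acp5 also have promoters in the RefSeq table, and those of Nfatc1, Atp6v0d2, Itgb3 and Car2 are not shown.

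Tnfrsf11a encodes RANK, the receptor through which RANK ligand starts osteoclast formation. Its probe (A_55_P2325803; NM_009399; chromosome 1, 107741892 to 107741951, plus strand, mm9) gave 11.57, 10.47, 11.35 and 10.98 in DMSO and 10.82, 10.57, 10.93 and 10.96 in cordycepin. It gave 10.80, 11, 10.87 and 10.78 in LPS+DMSO and 10.79, 10.38, 11.27 and 11.70 in LPS+cordycepin. The 4 conditions overlapped, and the spread was wide in DMSO (SD 0.48, n = 4) and LPS+cordycepin (SD 0.57, n = 4) and narrower in the others, at 0.18 in cordycepin and 0.10 in LPS+DMSO. The log2 change was -0.23 (interval -0.77 to 0.31) with LPS, -0.27 (interval -0.81 to 0.27) with cordycepin and 0.17 (interval -0.37 to 0.71) with cordycepin in LPS. Without DMSO replicate 2 the LPS and cordycepin differences were -0.44 and -0.48 (limma adjusted p = 0.278 and 0.224).

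Itgb3 encodes the β3 chain of the αvβ3 integrin, the vitronectin receptor with which osteoclasts hold on to bone. Its probe (A_52_P553890; NM_016780; chromosome 11, 104531672 to 104531731, plus strand, mm9) gave 9.13, 10.1, 9.16 and 9.41 in DMSO and 8.92, 8.95, 8.99 and 8.76 in cordycepin. It gave 9.18, 8.99, 8.98 and 9.09 in LPS+DMSO and 8.83, 8.89, 8.85 and 9.03 in LPS+cordycepin. Every cordycepin array lay below every DMSO array, and DMSO replicate 2 lay above all other arrays.

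Itgb3 fell by 0.54 with cordycepin (SE 0.16, interval -0.89 to -0.20, lower in 4 of 4 replicates, limma adjusted p = 0.0328), with -0.68 within the slide of replicates 1 and 2 and -0.41 within that of replicates 3 and 4. Without DMSO replicate 2 the change was -0.33 (limma adjusted p = 0.0266). The call was lost without cordycepin replicate 1, 2, 3 or 4 or DMSO replicate 4 (adjusted p = 0.0530 to 0.0952), where a condition had 3 arrays. With LPS the change was -0.39 (interval -0.74 to -0.04, limma adjusted p = 0.137), and -0.17 without DMSO replicate 2 (adjusted p = 0.267). Cordycepin in LPS gave -0.16 (interval -0.51 to 0.19), lower in 4 of 4 replicates. The dimmer Itgb3 probe differed by -0.14 with cordycepin (interval -0.80 to 0.52).

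Nfatc1, the transcription factor at the head of the osteoclast programme, has 2 probes that lie far apart in the gene and whose values went opposite ways with cordycepin. The brighter probe, A_51_P517870, is assigned to transcript variant 2 (NM_198429; chromosome 18, 80803664 to 80803723, minus strand, mm9). The dimmer, A_51_P220135, is assigned to variant 1 (NM_016791; chromosome 18, 80845439 to 80845498, minus strand, mm9), and lies upstream of the first on the strand of the gene. The variant 2 probe stands for the gene in the counts above.

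The variant 2 probe gave 10.53, 10.32, 10.82 and 10.65 in DMSO and 10.87, 11.03, 11.08 and 10.83 in cordycepin. It gave 10.28, 10.37, 10.47 and 10.25 in LPS+DMSO and 10.45, 10.77, 10.44 and 10.54 in LPS+cordycepin. Cordycepin was the highest of the 4 conditions, with no overlap with any other.

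With cordycepin the variant 2 probe of Nfatc1 rose by 0.37 (SE 0.11, interval 0.13 to 0.61, 1.29-fold, higher in 4 of 4 replicates, limma adjusted p = 0.0366), with 0.52 and 0.21 within the slides. Without DMSO replicate 2 this was 0.28 (adjusted p = 0.0955), and the call was also lost without DMSO replicate 1 or cordycepin replicate 2 or 3 (adjusted p = 0.0833 to 0.110). It fell by 0.40 with LPS in cordycepin (SE 0.11, interval -0.64 to -0.16, lower in 4 of 4 replicates, limma adjusted p = 0.0383), with -0.34 and -0.46 within the slides, and this call was lost when any of 7 single arrays was left out (adjusted p = 0.0529 to 0.122), namely cordycepin replicate 1, 2 or 3, LPS+DMSO replicate 2 or LPS+cordycepin replicate 1, 3 or 4. In DMSO the difference with LPS was -0.24 (interval -0.48 to 0.00, limma adjusted p = 0.186), or -0.33 without DMSO replicate 2 (adjusted p = 0.0507), and that between the LPS responses was -0.16 (interval -0.50 to 0.18). For cordycepin in LPS it was 0.21 (interval -0.03 to 0.45). When the Nfatc1 probes were averaged, the change with cordycepin was -0.07 (adjusted p = 0.819) and that in LPS -0.27 (adjusted p = 0.237).

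The variant 1 probe of Nfatc1 gave 8.03, 7.13, 8.19 and 7.74 in DMSO and 7.0, 7.1, 7.46 and 7.54 in cordycepin. It gave 7.35, 7.58, 7.55 and 7.39 in LPS+DMSO and 6.27, 6.71, 6.83 and 7.04 in LPS+cordycepin. LPS+cordycepin was the lowest condition, all of its arrays lay below those of LPS+DMSO, and its replicate 1 was not well above background. When every probe was tested on its own, this probe fell by 0.76 with cordycepin in LPS (SE 0.21, interval -1.21 to -0.30, lower in 4 of 4 replicates, limma adjusted p = 0.0176), where 20.2% of all 21598 probes were called. With cordycepin alone the change was -0.50 (interval -0.95 to -0.05, lower in 4 of 4 replicates, limma adjusted p = 0.131), where 16.7% of all probes were called.

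The difference between the Nfatc1 probes was therefore taken on each array, a measure chosen after their values had been seen. The variant 2 less the variant 1 log2 signal was 2.5, 3.19, 2.63 and 2.91 in DMSO and 3.87, 3.93, 3.62 and 3.28 in cordycepin. It was 2.92, 2.79, 2.92 and 2.86 in LPS+DMSO and 4.18, 4.06, 3.61 and 3.49 in LPS+cordycepin. All 8 arrays with cordycepin were above all 8 without.

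With cordycepin the difference between the Nfatc1 probes was larger by 0.87 at rest (SE 0.18) and by 0.96 with LPS (SE 0.18), in 4 of 4 replicates each. With LPS it was larger by 0.06 in DMSO and by 0.16 in cordycepin (SE 0.18 for both), with overlap between the conditions. The first value was 1.00 without DMSO replicate 2. Since the measure was chosen for this separation, the values are a description and no test of them is given. The share of other genes whose probes separate in this way is not given either. Creb1 and Mef2d, described below, also had probes that changed in opposite directions with cordycepin in LPS.

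**Figure D3:**
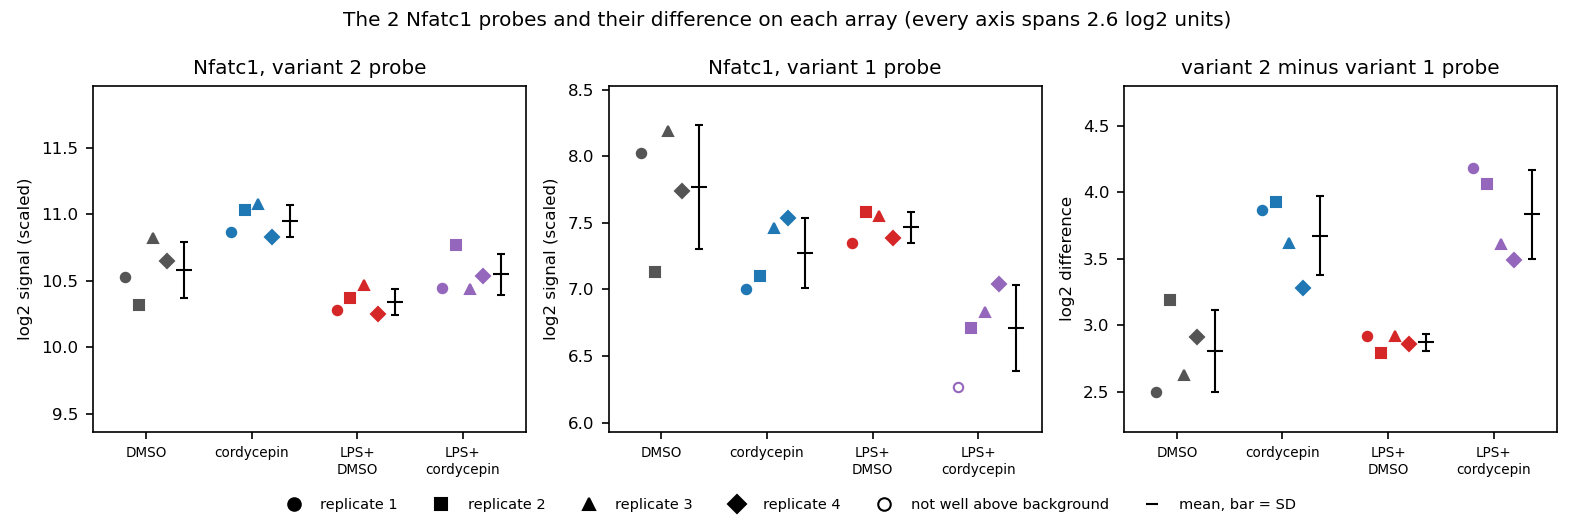
The variant 2 probe of Nfatc1, the variant 1 probe and their difference (vertical axes, log2) on the 16 arrays by condition. Symbols mark the replicate number, and bars the mean ± SD of 4 arrays. Open symbols mark a signal not well above background in the panels of the single probes. In the panel of the difference all symbols are filled, although the variant 1 signal of LPS+cordycepin replicate 1 was not well above background. The difference was at least 3.28 on every array with cordycepin and at most 3.19 on every array without.

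Of the genes of resorption, Ctsk encodes cathepsin K, the cysteine protease that cuts collagen in the acid space under the osteoclast. Its probe (A_55_P1961335; NM_007802; chromosome 3, 95313165 to 95313224, plus strand, mm9) gave 14.09 ± 0.18 in cordycepin, 14.01 ± 0.14 in DMSO, 13.98 ± 0.18 in LPS+cordycepin and 13.93 ± 0.15 in LPS+DMSO (SD, n = 4). No neighbours in this order differed beyond their spread. The differences were -0.08 (interval -0.33 to 0.18) with LPS, 0.08 (interval -0.18 to 0.33) with cordycepin and 0.05 (interval -0.20 to 0.30) with cordycepin in LPS. Although small, the first 2 had the same sign in 4 of 4 replicates, and with the replicate number as a block the limma adjusted p was 0.532 and 0.496. They were -0.08 and 0.07 without DMSO replicate 2. With LPS in cordycepin the Ctsk difference was -0.10 (interval -0.36 to 0.15), lower in 4 of 4 replicates.

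Acp5 encodes tartrate-resistant acid phosphatase, the classical stain of osteoclasts. Its probes, A_55_P2037608 and A_55_P1997766 (NM_001102405; chromosome 9, 21931175 to 21931249 in all, minus strand, mm9), share 45 of their 60 bases. The brighter gave 6.68 ± 0.16 in LPS+cordycepin, 6.61 ± 0.26 in cordycepin, 6.54 ± 0.34 in DMSO and 6.44 ± 0.62 in LPS+DMSO (SD, n = 4). The conditions overlapped, and LPS+DMSO replicate 1, at 5.56, was the lowest array and not well above background. The difference with LPS was -0.10 (interval -0.64 to 0.44), or 0.19 without that array and -0.20 without DMSO replicate 2. With cordycepin it was 0.06 (interval -0.47 to 0.60), or -0.04 without DMSO replicate 2, and with cordycepin in LPS it was 0.24 (interval -0.30 to 0.77). For the dimmer probe, the latter was -0.38 (interval -0.73 to -0.03, lower in 4 of 4 replicates, limma adjusted p = 0.13), so the 2 probes of Acp5 differed in sign although neither was called.

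Atp6v0d2 encodes the d2 subunit of the vacuolar proton pump, which also takes part in the fusion of precursors. Its brighter probe (A_66_P124179; NM_175406; chromosome 4, 19805367 to 19805426, minus strand, mm9) gave 7.17, 8.41, 7.62 and 6.83 in DMSO. The mean was 7.31 ± 0.08 in cordycepin, 7.22 ± 0.16 in LPS+cordycepin and 7.25 ± 0.22 in LPS+DMSO (SD, n = 4). DMSO replicate 2 was above all other arrays, and the conditions overlapped. The differences were -0.25 (interval -0.77 to 0.26) with LPS and -0.19 (interval -0.71 to 0.32) with cordycepin, and 0.05 and 0.11 without that array. For cordycepin in LPS the value was -0.04 (interval -0.55 to 0.48).

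Car2 encodes carbonic anhydrase II, which supplies the protons for acid secretion. Its probe (A_51_P455647; NM_009801; chromosome 3, 14900206 to 14900265, plus strand, mm9) gave 11.48, 9.55, 11.60 and 11.40 in DMSO and 11.59, 11.49, 11.86 and 11.67 in cordycepin. It gave 11.26, 11.44, 11.54 and 11.84 in LPS+DMSO and 11.48, 12.04, 11.72 and 11.61 in LPS+cordycepin. DMSO replicate 2 lay below all other arrays, which ranged from 11.26 to 12.04, and apart from it the 4 conditions overlapped. The differences were 0.51 (interval -0.21 to 1.23) with LPS and 0.64 (interval -0.07 to 1.36) with cordycepin, and 0.03 and 0.16 without that array (limma adjusted p = 0.951 and 0.558). For cordycepin in LPS the difference was 0.19 (interval -0.53 to 0.91).

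Correlations among the 8 genes rested in part on DMSO replicate 2. The strongest correlation among them, -0.88 between Car2 and Itgb3 over the 16 arrays, was -0.41 without DMSO replicate 2, and that between Car2 and Atp6v0d2 went from -0.76 to 0.08. These are descriptions of arrays that share conditions, days and slides. The genes most like each of the 8 (Pearson r over 16 arrays, and without DMSO replicate 2) are given in the same way. For Car2 they were Kif2c, a mitotic kinesin, and Gcgr, the glucagon receptor (0.96 for both, and 0.60 and 0.61). For Itgb3 they were Sphk2, a sphingosine kinase (0.97 and 0.91), and Mib2, a ubiquitin ligase (0.95 and 0.84), and for Atp6v0d2 they were Rnf6 (0.87 and 0.65) and Cbr4 (0.86 and 0.61).

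For the other 5 genes the correlations moved by at most 0.04 without that array. Oscar was most like Rec8, a meiotic cohesin subunit (0.91), and 2810408A11Rik (0.89). Nfatc1 was most like Jade1 and Unc119 (0.91 for both), and Tnfrsf11a most like Carm1, an arginine methyltransferase, and Cdkn2c, an inhibitor of cyclin-dependent kinases (0.93 for both). Ctsk was most like Man2b1, a lysosomal mannosidase (0.87), and Scn11a (0.85), and Acp5 most like Snrnp48 (0.81) and Mrpl35 (0.79).

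The pathway around the 8 genes was followed with 6 lists, whose counts stand beside the shares of all genes that were called. With LPS 5.11% of all genes were higher and 9.74% lower, with cordycepin 8.07 and 7.73%, with cordycepin in LPS 10.8 and 8.36%, and with LPS in cordycepin 3.62 and 4.38%. In the list of RANK and M-CSF signalling 13 of 17 genes were tested, and Tnfsf11, which encodes RANK ligand itself, was too dim, as were Il34, Gab2 and Src. With LPS, Csf1, the gene of M-CSF, rose by 2.11 (SE 0.52, limma adjusted p = 0.0115), or by 2.82 without DMSO replicate 2, and Mapk14 fell by 0.23 (SE 0.07). The other two Csf1 probes, which are dimmer, differed by -0.10 and 0.01. With cordycepin the signals of Traf2 and Map3k14, which control the NF-kB pathways, fell, with changes of -1.43 and -0.70, and of -1.60 and -0.76 in LPS, whereas Grb2 rose by 0.42 in LPS. A dimmer Traf2 probe differed by -0.02 and, in LPS, by 1.49 (SE 0.55). A dimmer Map3k14 probe differed by -0.18 and, in LPS, by -0.53 (limma adjusted p = 0.748 and 0.237). The list's median change was -0.06 with LPS, -0.15 with cordycepin and -0.02 with cordycepin in LPS. With LPS in cordycepin limma called 0 of the 13, with 2 at an unadjusted p under 0.05, and 1 was called without DMSO replicate 2.

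In the list of ITAM costimulation and calcium signalling 13 of 14 genes were tested. Rcan1, a calcineurin inhibitor that is itself a target of NFAT, rose with LPS by 1.83 (SE 0.23, limma adjusted p = 3.69e-05) and in cordycepin by 1.29. Lcp2 rose with LPS by 0.55, and this call was lost without DMSO replicate 2 (0.51, limma adjusted p = 0.0701). Tec, a kinase that activates phospholipase Cγ, fell with cordycepin by 0.55 and in LPS by 0.50, and its other probe by 0.55 and 0.52. The median change of the list was -0.04 with LPS and 0.06 with cordycepin in LPS.

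The 6 lists were chosen with earlier results of these data known, so their counts and order are a description. The list of activating transcription factors had the most calls of the 6 in both comparisons with LPS alone and with cordycepin in LPS. Of 20 tested of 22, 10 rose with LPS and none fell (11 rose without DMSO replicate 2), beside 5.11 and 9.74% of all genes, and the list's median was 0.62 beside -0.04 for all genes. Fos, a partner of NFATc1, rose by 4.67 (SE 0.15, limma adjusted p = 1.09e-11), from 3 of 4 DMSO arrays well above background. Myc rose by 3.56 (SE 0.43), from 2 of 4 such arrays, and its probe passed the filter only through the conditions with LPS. The 8 others were Fosl1, Fosl2, Jun, Junb, Nfkb1, Nfkb2, Rela and Relb. In cordycepin 9 of the 20 rose with LPS, beside 3.62% of all genes, Fos by 4.54. Myc was not well above background on any of the 4 cordycepin arrays, and set against the lowest signal that was so on each array its level with LPS was at least 3.13-fold higher.

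Under cordycepin in LPS, 7 of these 20 factors fell and 1 rose (8 fell without DMSO replicate 2), beside 8.36 and 10.8% of all genes, with a median of -0.32. Myc fell most, by 1.92 (SE 0.43, limma adjusted p = 0.00428), and Fos differed by -0.19 (interval -0.50 to 0.12). Mef2d rose by 0.54, but another of its probes fell by 1.38, and Creb1 fell by 1.18 while its other probe rose by 3.58. With cordycepin alone the Mef2d probe used rose by 0.35, while that other probe fell by 1.39 and a further one differed by -0.35, and Jun and Nfkb2 fell, Nfkb2 losing the call without DMSO replicate 2 (limma adjusted p = 0.0920).

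Of the inhibitors of osteoclast formation 15 of 17 were tested, and 5 rose and 2 fell with LPS (3 fell without DMSO replicate 2), beside 5.11 and 9.74% of all genes. In cordycepin 4 rose and 1 fell with LPS (5 rose without DMSO replicate 2), beside 3.62 and 4.38%. Tnfaip3, which encodes the NF-kB inhibitor A20, rose by 5.24 (SE 0.13, limma adjusted p = 7.22e-13). Id3 rose by 4.87 (SE 0.54), from 2 of 4 DMSO arrays well above background, and its probe passed the filter only through the conditions with LPS. Bcl6, Id1 and Id2 also rose, and Dok1 fell by 0.91 and Cyld by 0.35. Under cordycepin in LPS 4 fell and 1 rose, beside 8.36 and 10.8% of all genes, with changes of -1.63 for Id3, -0.93 for Tnfaip3 and 0.82 for Cyld, and the call of Id3 was lost without DMSO replicate 2 (limma adjusted p = 0.0518). With cordycepin alone Id1 rose by 0.75 and Cyld by 0.64, and Bcl6 fell by 0.53 and Dok1 by 0.47, and 5 rather than 2 fell without DMSO replicate 2. A dimmer Cyld probe differed by -0.23 with LPS, 0.46 with cordycepin in LPS and 0.33 with cordycepin (limma adjusted p = 0.544, 0.115 and 0.286). The median change of the list was 0.05 with LPS and -0.20 with cordycepin in LPS.

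In the lists of the mature cell's machinery at most 1 gene of each was called in any of the 4 comparisons, beside 14.9% of all genes with LPS, 15.8% with cordycepin, 19.2% with cordycepin in LPS and 8.01% with LPS in cordycepin. Of 17 tested genes of cell fusion and the cytoskeleton, Cd44 alone was called, which rose with LPS by 0.55 and fell with cordycepin in LPS by 0.35. A further Cd44 probe rose with LPS by 2.65 and changed by -1.53 with cordycepin in LPS, and another differed by 0.38 and -0.05 (limma adjusted p = 0.134 and 0.885). Of 25 tested genes of acid secretion and matrix resorption, Plekhm1, which controls vesicle traffic to the ruffled border, alone was called, and its log2 signal fell with LPS by 0.83, with cordycepin by 1.64 and with cordycepin in LPS by 1.07. With LPS in cordycepin limma called 0 of the 17 and 0 of the 25, with 1 and 0 at an unadjusted p under 0.05. Without DMSO replicate 2, 1 more gene of fusion was called higher with cordycepin in LPS and 1 more of resorption higher with LPS. The medians of these lists lay between -0.04 and 0.08 in all 4 comparisons, as the plot of the lists shows for LPS and for cordycepin in LPS.

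**Figure D4:**
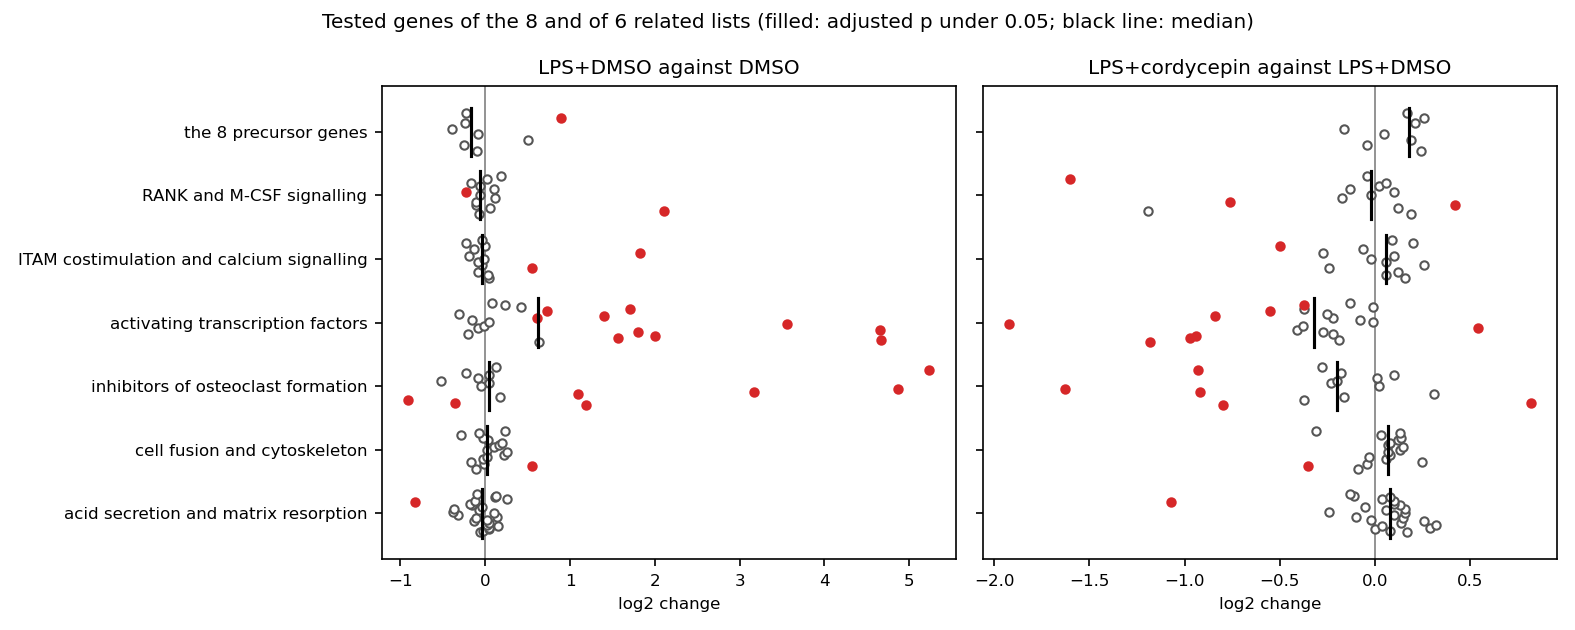
Log2 change (horizontal axis) of every tested gene of the 8 and of the 6 lists (rows) in LPS+DMSO against DMSO and in LPS+cordycepin against LPS+DMSO. Filled red points are called genes and black lines the medians, which were 0.62 and -0.32 for the activating transcription factors, -0.16 and 0.18 for the 8 genes, and within 0.10 of 0 for the lists of fusion and resorption.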

How the data were processed

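mRNA of 16 RAW264.7 cultures was measured on 1-colour Agilent arrays. The authors extracted the intensity of each spot with Feature Extraction (10.10.1.1 in the submitters' processing notes, 10.7.3.1 in the file headers), with background and spatial trend subtracted. The value table that the authors deposited holds log2 values for 23730 probes (medians 9.55 to 9.58 on all arrays, so it had been normalized between arrays; the notes name limma, with no step given), and it served as an alternative. Other columns used are the software's flags.

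Processed intensities were log2-transformed, outlier spots left out, and arrays were scaled by their 75th percentiles, taken over 18148 probes with a signal well above background throughout. The probes kept (21598) gave 15877 genes, by the brightest probe. The 4 condition means were fitted with limma 3.58.1 in R 4.3.3 over all 16 arrays, without a block, with Benjamini-Hochberg adjustment over all genes. On simulated data for LPS+DMSO against DMSO with 15877 genes, 77 of 100 genes changed by 1 (log2) and 98 of 100 changed by 2 were recovered, with 7 calls among unchanged genes. The number of arrays limits the precision.

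The members and lists were chosen with earlier results of these data known. Named genes are the 8, the 2 most correlated with each, the largest called rise and fall of each list in each comparison but the interaction, and the genes that make up counts of 5 or fewer. Further genes and probes, such as those of Creb1 and the further Cd44, Traf2, Map3k14, Cyld and Mef2d probes, were named after their values were seen. Genes were named through RefSeq (GRCm38.p6) and probe positions are those of the files (mm9). Replicates of the same number share a culture day by the labels. Deviations from the condition means correlated at 0.20 on average between arrays of the same number (-0.06 to 0.44, above 0.1 in 20 of 24 pairs), at 0.18 between other numbers on the same slide, and at -0.19 between slides. Alternatives were other scalings, background correction, filters, probe rules, blocks, tests and thresholds, and leaving out each replicate number and each array.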

Additional observations from a re-analysis of the deposited data

Results flagged for a closer look

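In groups of 4 arrays, a single array far from the other 3 was looked for in the signals of the 8 genes and of the named list genes, and 4 of 112 groups had one, where chance gives about 1 in 20 (5.6 of 112). Car2 in DMSO was at 9.55 in replicate 2 against 11.40 to 11.60 in the others, and Grb2 in DMSO at 12.39 in the same replicate against 12.79 to 12.85. Csf1 in LPS+cordycepin was at 10.7 in replicate 3 against 10.96 to 10.99, and Mapk14 in LPS+DMSO at 12.75 in replicate 2 against 12.67 to 12.68.

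The LPS response with cordycepin differed from that without by the limma interaction for 3 list genes and for none of the 8. It was smaller by the log2 difference of -1.19 for Tnfaip3 (adjusted p = 0.0114), -0.81 for Fosl2 (0.0152) and -0.59 for Cd44 (0.0474). Without DMSO replicate 2 that of Cd44 was no longer called (-0.55, limma adjusted p = 0.0620).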

How the results depend on the processing

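The counts of the 8 genes called were 1 with LPS, 2 with cordycepin, 0 with cordycepin in LPS, 2 with LPS in cordycepin and 0 for the interaction. They were the same with the replicate number as a block, which pairs the arrays by day, and with the slide as a block, with quantile normalization and with an intensity trend. With LPS the count was 0 with scaling to spike-ins, with normexp, with no filter on dim probes, with probes well above background on all arrays (where Oscar is not tested), with the methods' univariate test, with a 2-fold minimum and at an adjusted p under 0.01. With cordycepin it was 1 with scaling to the median, with the percentile over all probes and with the mean of a gene's probes, and 0 with scaling to spike-ins, with normexp, with no filter, with only the groups compared, with the univariate test, with the 2-fold minimum and at 0.01. With LPS in cordycepin it was 1 with the percentile over all probes, the value table, probes well above background on all arrays, the mean of a gene's probes and only the groups compared, and 0 with spike-ins, normexp, no filter, the univariate test, the 2-fold minimum and at 0.01. With cordycepin in LPS it was 1 with every probe on its own, the variant 1 probe of Nfatc1. Leaving out a replicate number or an array gave 0 to 1, 0 to 2, 0, 0 to 2 and 0. Without replicate 1, 3 or 4 of every condition the Nfatc1 call with LPS in cordycepin was lost (-0.40, -0.32 and -0.44, adjusted p = 0.193, 0.264 and 0.137). Both calls in cordycepin against DMSO, Nfatc1 and Itgb3, were lost without any of the 4 replicate numbers (adjusted p = 0.0571 to 0.178).

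With the mean of a gene's probes Nfatc1 reversed to -0.07 with cordycepin and to -0.27 with cordycepin in LPS, Mef2d to -0.46 and -0.43, and Creb1 to 1.20, as the mean joins probes of opposite sign. With LPS, Acp5 reversed to 0.28 without replicate 1 and 0.19 without LPS+DMSO replicate 1 (range -0.33 to 0.28 over all leave-outs), and Atp6v0d2 to 0.04 without replicate 2 and 0.05 without DMSO replicate 2 (range -0.48 to 0.05). Of 1374 changes of the 8 under alternatives 63 lost the call, 6 reversed and 73, within 1 SE of 0 in both fits, have no direction. Only a change called in the main fit can lose its call, and most of the 1374 were not called there. Apart from leave-outs, Oscar was not called in 4 of 14 fits with LPS and 4 of 14 with LPS in cordycepin. Nfatc1 was not called in 7 of 15 fits with cordycepin and 8 of 15 with LPS in cordycepin, and Itgb3 in 6 of 15 with cordycepin. Spike-in scaling moved the median of all genes to -0.14 with LPS, 0.10 with cordycepin, -0.12 with cordycepin in LPS, -0.36 with LPS in cordycepin and -0.21 for the interaction, and with it 632 of 704 genes called with cordycepin were higher, against 1282 of 2509. Over all genes the block called 209 interactions against 87. Oscar and the dimmer Acp5 probe lie near background, where signals are least exact. The cause of the losses was not tested.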
